A study of Oryza sativa and Oryza rufipogon with 8 samples.

Results

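Roots take up sulfur as sulfate through proton-coupled transporters of the plasma membrane, and sulfate transporters of other cells load it into the vascular tissue and into plastids. ATP sulfurylase then joins sulfate to ATP to give adenosine phosphosulfate (APS), and APS reductase reduces APS to sulfite, which becomes sulfide and is built into cysteine and from there into methionine. In grasses under Fe deficiency, methionine is also the source of S-adenosylmethionine, from which nicotianamine and the mugineic acids that chelate Fe(III) in the rhizosphere are made. The 8 genes described here are 5 sulfate transporter genes (OS01G0719300, OS03G0195300, OS03G0195500, OS03G0195800 and OS03G0196000), 2 ATP sulfurylase genes (OS03G0743900 and OS04G0111200) and the APS reductase gene OS07G0509800. They are listed by identifier and class, in a list drawn up with earlier results of these data known and with no threshold on their values, and are 8 of the 35679 *O. sativa* genes with estimates.

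The libraries came from roots of *O. sativa* cv. Nipponbare at the stage of 3 leaves, grown in non-aerated nutrient solution that held potassium and magnesium sulfate in both conditions. The −Fe plants received no Fe for 5 days, and the plants of the control condition (CC) were kept in 100 µM Fe-EDTA. Each condition has 2 libraries, each holding RNA pooled from 3 biological replicates, so that n = 2 for every mean and a library holds no information on single plants. Another 4 of the 8 libraries of the series are from the wild rice *O. rufipogon*, 2 under −Fe for 5 days and 2 under CC. They were quantified on a different set of transcripts.

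Estimated counts summed to between 22911261 and 25312301 per *O. sativa* library, so that 3 counts correspond to between 0.119 and 0.131 CPM (counts scaled to the library total). Levels within a gene are given in CPM after TMM normalization, and levels of different genes are compared in TPM, which is corrected for transcript length. The Fe treatment was visible in the genes of Fe uptake. *IRT1* (OS03G0667500), a ferrous iron transporter, had 283.6 and 318.7 CPM under −Fe, against 85.85 and 67.33 CPM under CC. *NAS1* (OS03G0307300), a nicotianamine synthase, had 2598 and 3274 CPM under −Fe, against 244.1 and 297.7 CPM under CC. Both give estimates that were divided with other transcripts. The root silicon channel gene *Lsi1* (OS02G0745100), the marker used for the labelled tissue, was abundant in all 4 libraries, with 656 ± 94.6 CPM under −Fe and 1797 ± 369 CPM under CC (SD, n = 2), and it fell (log2 fold change −1.45, edgeR adjusted p = 0.00368). Its part in the results on sulfate genes was not tested. In RNA of whole roots, fewer cells of one type and less RNA in each such cell cannot be told apart.

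The response of these genes to Fe deficiency was a fall of 2 sulfate transporters, a small rise of the main ATP sulfurylase and no call for the other 5 genes. The rise lost its call in 7 of 12 processing alternatives described below, and each fall in 1 of 12. All 8 genes passed the filter on low counts and entered the quasi-likelihood test of edgeR, fitted over 25767 genes, with an FDR of 0.05. OS03G0196000 and OS01G0719300 fell 2.49-fold and 2.42-fold under −Fe, and OS03G0743900 rose 1.36-fold. So 3 of 8 members were called, where 6.63% of all genes tested were. In detail, 2 of 8 members were called lower, where 3.65% of all genes tested were, and 1 of 8 was called higher, where 2.98% were. At an unadjusted p under 0.05 there were 6 members, 5 lower and 1 higher, against 20.3%, 11.5% and 8.74% of all genes tested. The median log2 fold change was −0.43 over the 8 members and −0.01 over all genes tested. These shares describe 8 chosen genes and are no test of the list.

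**Figure D1:**
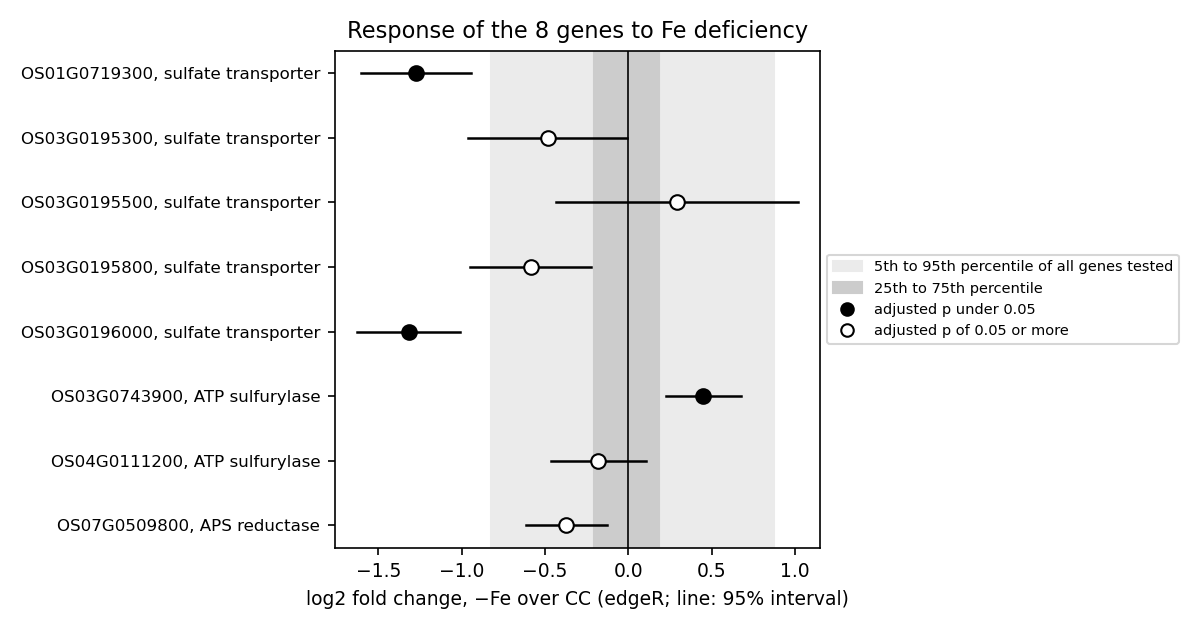
Log2 fold change of each of the 8 genes, −Fe over CC, with its 95% interval (x axis), beside the spread over all 25767 genes tested (dark band, 25th to 75th percentile; light band, 5th to 95th percentile). Filled points passed the FDR of 0.05: the transporters OS01G0719300 and OS03G0196000 lie left of the light band, and the ATP sulfurylase OS03G0743900 lies inside it on the right.

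In CPM under −Fe, OS03G0195800 (mean 33.96) and OS03G0196000 (mean 33.6) were about level. In TPM, which is corrected for transcript length, OS03G0196000 was the most abundant of the transporters under both conditions. It is annotated in the study's tables as similar to a sulfate transporter and lies on chromosome 3 from 4998396 to 5001806, in coordinates for which that table names no genome build. Its level was 29.92 and 37.29 CPM in the −Fe libraries, against 76.67 and 90.90 CPM in the CC libraries. Both −Fe libraries lay far below both CC libraries, and the gap between the conditions exceeded the spread within either. The mean was 33.6 ± 5.21 CPM under −Fe and 83.8 ± 10.1 CPM under CC (SD, n = 2), with a log2 fold change of −1.32 ± 0.131 (SE) and an adjusted p of 0.00157 in edgeR. This places it at percentile 1.9 of the log2 fold changes of all genes tested. With limma on log2 of TPM and a pseudocount of 0.1 it missed the FDR (adjusted p = 0.0703). Its estimates were not whole numbers in any library (tolerance 0.005), which occurs when Kallisto assigns parts of a read to several matching transcripts, so its level is uncertain to that extent. This gene and OS01G0719300 are described in tables that the study ordered by its own test on these libraries. The study also reported sulfate transport among the terms down-regulated in both species. The falls of these genes are therefore not independent of the study's results.

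OS01G0719300, annotated as similar to sulfate transporter 3.1, lies on chromosome 1 from 29987911 to 29994075 in the same coordinates. It had 5.967 and 5.530 CPM under −Fe, against 14.06 and 13.78 CPM under CC. The 2 libraries of each condition were nearly equal, and those of −Fe were the low ones. The mean was 5.75 ± 0.309 CPM under −Fe and 13.9 ± 0.202 CPM under CC (SD, n = 2), with a log2 fold change of −1.28 ± 0.145 (SE) and an adjusted p of 0.000962 in edgeR, and missed the FDR with limma at the same pseudocount (adjusted p = 0.0511). The transporter is of low abundance, and these levels rest on 145 and 136 estimated counts under −Fe and 328 and 318 under CC. Only the second −Fe library gave an estimate that was not whole.

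The other 3 transporters did not pass the FDR. OS03G0195800, close to OS03G0196000 in the numbering of chromosome 3, had 32.30 and 35.62 CPM under −Fe, against 43.35 and 58.71 CPM under CC. The −Fe libraries were again the lower ones, but the CC libraries differed from each other by more than the nearest −Fe and CC libraries did. The log2 fold change was −0.59 ± 0.150 (SE), with a 95% interval of −0.95 to −0.23 and an adjusted p of 0.0769 in edgeR. It passed with DESeq2 (adjusted p = 0.0202) and with the replicate block (edgeR adjusted p = 0.0149). In 9 of 12 processing alternatives it did not pass, limma on log2 of TPM among them (adjusted p = 0.158 and 0.254 at pseudocounts of 1 and 0.1). The log2 fold change was −0.79 without CC library 1 and −0.35 without CC library 2. Its estimates were not whole in any of the 4 libraries.

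OS03G0195300 had 4.733 and 4.595 CPM under −Fe, against 7.418 and 5.633 CPM under CC. The −Fe libraries were the low ones by a small margin, and the log2 fold change was −0.48 (95% interval −0.96 to −0.01, edgeR adjusted p = 0.237). OS03G0195500, the least abundant of the 8 genes, had 1.646 and 1.464 CPM under −Fe, against 1.286 and 1.256 CPM under CC. Its counts lay between 29.1 and 39.7 per library and were divided with other transcripts in all 4 libraries, and the interval of its log2 fold change (−0.44 to 1.01) spans a fall as well as a rise, so that no direction could be given at this depth (edgeR adjusted p = 0.690).

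Among the enzymes, the ATP sulfurylase OS03G0743900 stood out by its level. It had 482.1 and 510.2 CPM under −Fe, against 336.9 and 390.2 CPM under CC. Both −Fe libraries were above both CC libraries, with a mean of 496 ± 19.9 CPM under −Fe and 364 ± 37.7 CPM under CC (SD, n = 2). The log2 fold change was 0.45 ± 0.0988 (SE), with a 95% interval of 0.23 to 0.67 and an adjusted p of 0.0296 in edgeR, at percentile 88.6 of all genes tested. The call needs all 4 libraries: without −Fe library 1, −Fe library 2, CC library 1 or CC library 2 the edgeR adjusted p was 0.0912, 0.114, 0.211 and 0.0774. It was also lost with limma on log2 of TPM (adjusted p = 0.139 and 0.229 at pseudocounts of 1 and 0.1) and when transcripts were tested singly in edgeR (adjusted p = 0.0899). The gene has 1 transcript, so this last fit used the same counts, tested among all transcripts in place of all genes. The estimates of this gene, from 7856 to 12547 counts, were whole in every library.

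The second ATP sulfurylase gene, OS04G0111200, had 14.24 and 16.51 CPM under −Fe, against 16.68 and 18.16 CPM under CC. The highest −Fe library and the lowest CC library were almost equal, and before normalization their counts were 406 and 389, in the other order. Its log2 fold change was −0.18 (95% interval −0.47 to 0.11, edgeR adjusted p = 0.496). The APS reductase OS07G0509800, whose product is widely regarded as a main control point of sulfate reduction, had 40.58 and 43.27 CPM under −Fe, against 59.69 and 48.87 CPM under CC. The −Fe libraries were lower, with a log2 fold change of −0.37 ± 0.107 (SE) and a 95% interval of −0.62 to −0.13, which did not pass the FDR (edgeR adjusted p = 0.0809). With no filter on low counts it passed narrowly (edgeR adjusted p = 0.0484), and in the remaining 11 of 12 processing alternatives it did not. Its CC libraries differed from each other by more than the nearest −Fe and CC libraries did. The log2 fold change was −0.22 without CC library 1 and −0.51 without CC library 2. In all, both −Fe libraries were below both CC libraries in 6 members and above them in 2, where 27.1% and 24.5% of all genes tested were below and above.

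**Figure D2:**
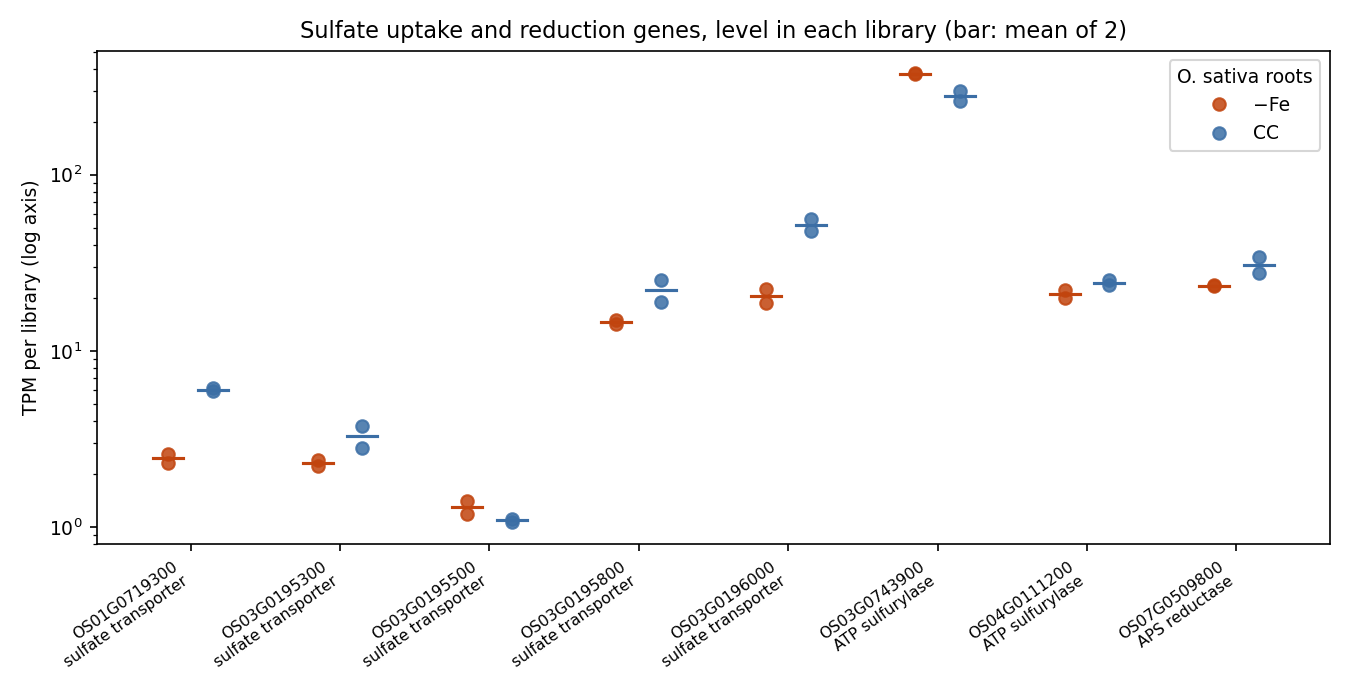
TPM of each gene in each library (log axis), with the −Fe libraries left and the CC libraries right for each gene, and the mean of 2 as a bar. OS03G0743900 is the highest gene in every library and OS03G0195500 the lowest, and the widest gaps between the conditions are those of OS01G0719300 and OS03G0196000.

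On the TPM scale the order of the genes changed in the middle. Under −Fe the mean levels were 375 ± 2.54 TPM (SD, n = 2) for OS03G0743900, 23.4 ± 0.284 for the APS reductase, 21.1 ± 1.51 for OS04G0111200, 20.5 ± 2.51 for OS03G0196000 and 14.5 ± 0.513 for OS03G0195800. Under CC they were 279 ± 25.9 TPM for OS03G0743900, 52.1 ± 5.69 for OS03G0196000, 30.8 ± 4.68 for the APS reductase, 24.3 ± 1.19 for OS04G0111200 and 22.1 ± 4.48 for OS03G0195800. Under −Fe the transporter OS03G0196000 thus stood below the APS reductase, which it exceeded under CC. Neighbours whose libraries overlapped were OS04G0111200 and OS03G0196000 under −Fe, and OS04G0111200 and OS03G0195800 under CC. The remaining transporters, OS01G0719300, OS03G0195300 and OS03G0195500, had means from 1.30 to 2.45 TPM under −Fe, where the libraries of the first and second overlapped, and from 1.09 to 6.01 TPM under CC, where none did.

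Sums over the genes of a class follow their most abundant members. The summed level of the 5 transporters was 39.3 and 42.9 TPM under −Fe, against 78.0 and 91.2 TPM under CC. For the 2 ATP sulfurylases the sum was 394 and 399 TPM under −Fe, against 285 and 323 TPM under CC. The ATP sulfurylase sum was thus 10.0 and 9.31 times the transporter sum in the −Fe libraries and 3.65 and 3.54 times in the CC libraries. The libraries of the conditions did not overlap in any of these quantities, which with 2 against 2 gives an exact two-sided permutation p of 0.333, the smallest that this design allows.

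**Figure D3:**
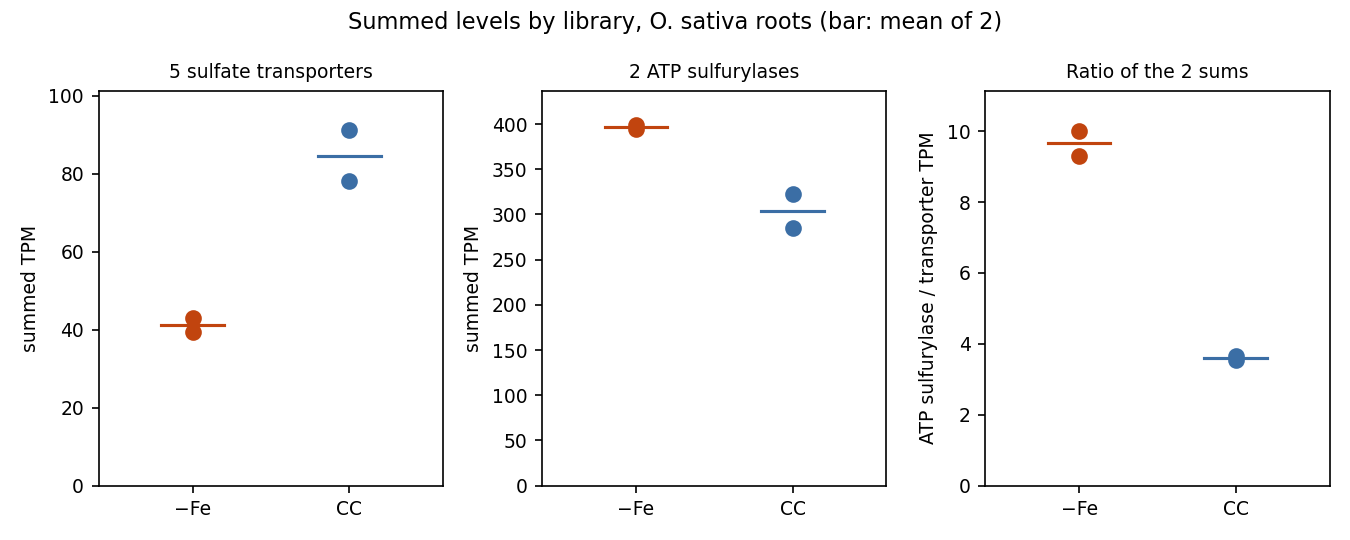
Summed TPM of the 5 sulfate transporters (left) and of the 2 ATP sulfurylases (middle), and the ratio of these sums (right), for each −Fe and CC library, with the mean of 2 as a bar and axes from 0. The −Fe libraries are the low ones for the transporters (39.3 and 42.9 TPM) and the high ones for the ratio (10.0 and 9.31).

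Within both groups a few genes carried the sum. OS03G0196000 made up 47.7% and 52.0% of the transporter TPM under −Fe and 61.6% and 61.5% under CC. The share of OS03G0195800 was 36.0% and 34.7% under −Fe and 24.3% and 27.8% under CC, and the ratio of OS03G0196000 to OS03G0195800 averaged 1.41 ± 0.123 under −Fe and 2.37 ± 0.223 under CC (SD, n = 2), with no overlap of the libraries (exact two-sided permutation p = 0.333). Both genes gave estimates that were not whole, so the division of reads between transcripts enters this ratio. OS03G0743900 held 94.9% and 94.4% of the ATP sulfurylase TPM under −Fe and 91.7% and 92.2% under CC. These shares rest on transcript lengths of 1590 nt for OS03G0743900 and 889 nt for OS04G0111200, and whether the models are complete was not checked. Relative to the APS reductase, the next enzyme of the pathway, the TPM of OS03G0743900 was 16.0 ± 0.0862 times as high under −Fe and 9.24 ± 2.24 times as high under CC (SD, n = 2).

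**Figure D4:**
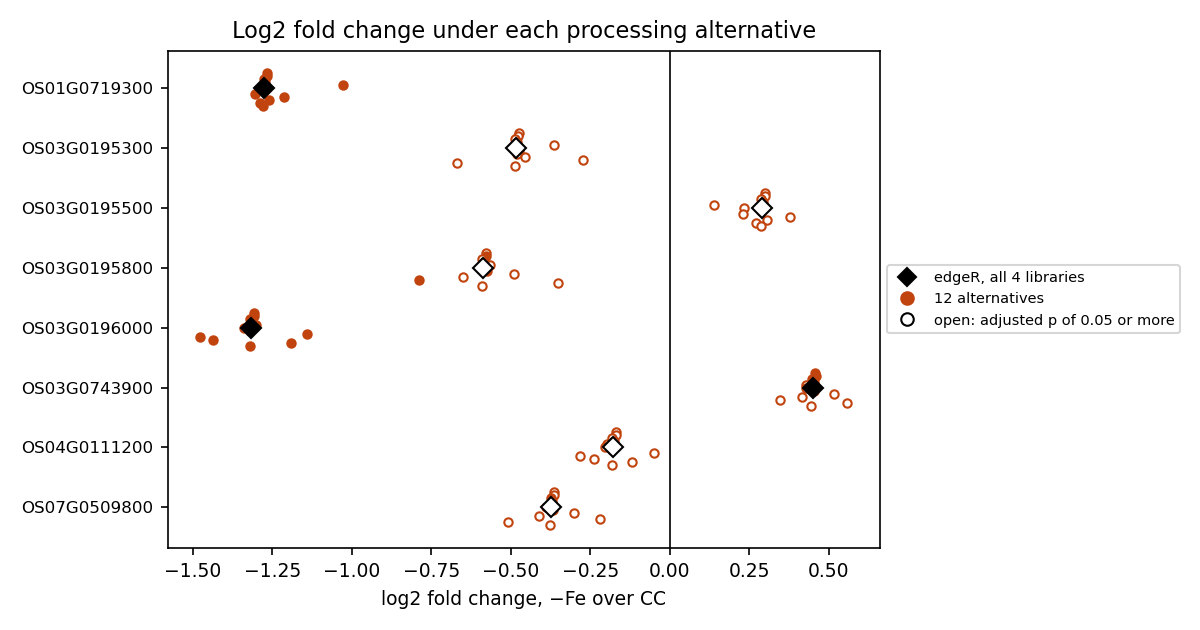
Log2 fold change of each gene, −Fe over CC (x axis), in the edgeR fit of all 4 libraries (diamonds) and under 12 processing alternatives (circles), open where the adjusted p was 0.05 or more. Each gene kept its side of 0 throughout, in fits that share their libraries and so are no independent checks. Open and filled circles both occur for OS03G0743900, OS01G0719300, OS03G0196000, OS03G0195800 and OS07G0509800.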

How the data were processed

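Reads of low quality (PHRED under 30) and adapters (Trim Galore) were taken out by the authors, who also cut 12 nt from the start of each read and quantified transcripts with Kallisto. The submitters' processing notes name the build IRGSP-1.0, and the Kallisto version is not given in the sources used here. The authors deposited estimated counts and TPM for each transcript. Here the estimated counts of a gene's transcripts were summed, rounded and kept when at least 5 in at least 2 of the 4 *O. sativa* libraries, then tested with edgeR 4.0.16 in R 4.3.3 (TMM normalization, robust quasi-likelihood fit, Benjamini-Hochberg adjustment, FDR of 0.05). The standard error is the log2 fold change divided by the square root of F. Each of the 8 genes has 1 transcript in the files. Libraries were grouped by their labels. Pairs of libraries of one condition had a chi-square per degree of freedom of 8.78 (−Fe) and 6.67 (CC), above counting noise, and were kept as separate replicates. Whether they came from separate cultures or pools is not stated in the study, which uses biological replicates for the RNAs pooled in a library. The p values therefore refer to the spread between these libraries at most. The fits also draw the variance of each gene towards that of the other genes. A standard error or p value therefore does not measure the spread of that gene alone.

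The alternatives were median-ratio size factors, DESeq2 1.42.0, no filter, a filter of 10 counts in each of the libraries, limma 3.58.1 with log2 TPM and pseudocounts of 1 and 0.1, the replicate number as a block, the most abundant transcript tested among all transcripts, and leaving out each library. The genes and lists were chosen with earlier results of these data known. By rule all 8 genes are named, with *IRT1* and *NAS1* as a check of the treatment. A list of further genes of the pathway, markers of leaf tissue and the genes most like the main transporter needed gene descriptions and were not analysed here, nor were sequences. In the study's tables, fold changes, p and q values were not used, and positions and gene descriptions were.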

Additional observations from a re-analysis of the deposited data

How the results depend on the processing

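With 2 libraries per condition, the spread between libraries (biological coefficient of variation 11.8%) limited the precision, and OS03G0195500, with at most 39.7 counts in a library, was also limited by depth. Each of the 8 genes kept its direction in all 12 alternatives, and 83 of the 96 values also kept their side of the threshold. The alternatives reuse the same 4 libraries, and the conditions did not overlap in any member. A kept direction is therefore no further evidence for it, also for OS03G0195500, whose direction stays undecided. Each member has 1 transcript, so the fit of single transcripts tests the same counts among other features. The causes of the changes below were not tested. The rise of OS03G0743900 lost its call with limma on log2 of TPM (0.43 with adjusted p = 0.139 at a pseudocount of 1, and 0.43 with adjusted p = 0.229 at 0.1), with its transcript tested among all transcripts (0.45, adjusted p = 0.0899) and without each library in turn (0.35 to 0.56, adjusted p = 0.0774 to 0.211), so that 0 members were called higher in these fits and with the crossed pairing. At a pseudocount of 0.1, OS01G0719300 (−1.27, adjusted p = 0.0511) and OS03G0196000 (−1.34, adjusted p = 0.0703) also missed the FDR, leaving 0 members called lower by limma, against 2 by edgeR and 5 at an unadjusted edgeR p under 0.05. Otherwise 2 or 3 members were called lower. OS03G0195800 passed with DESeq2 (−0.58), the replicate block (−0.57) and without CC library 1 (−0.79), ranging from −0.79 to −0.35 over the libraries left out, and OS07G0509800 passed with no filter (−0.37).

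Of all genes tested, 767 were called higher and 941 lower. The counts were 390 and 397 with limma at a pseudocount of 1, 193 and 83 at 0.1, and 417 and 417 with the most abundant transcript. Leaving out 1 library gave 328 to 489 higher and 285 to 717 lower, where the lone library is assumed to vary like the others. With the replicate number as a block 701 were higher and 1016 lower, among the members 1 higher and 3 lower. Nothing says that equal numbers mark a shared origin, and the deviations of same-numbered libraries had a correlation of −0.106 across genes. A crossed pairing, chosen after seeing the data, gave 917 higher and 1119 lower, among the members 0 higher and 3 lower.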

Other observations

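A few further sulfur genes carry a description in the study's tables and were chosen after their values were seen, from a list that the study itself ordered by its test on these libraries, so their direction is a description. OS09G0240500, annotated as similar to sulfate transporter 4.1, a transporter type known from Arabidopsis in the tonoplast, had 64.61 and 62.83 CPM under −Fe, against 48.33 and 52.82 CPM under CC. It was higher in the −Fe libraries, unlike OS03G0196000 and OS01G0719300, with a log2 fold change of 0.33, and its estimates were divided with other transcripts. OS12G0442800, annotated as similar to sulfite oxidase, which turns sulfite back into sulfate, had 12.55 and 12.44 CPM under −Fe, against 20.37 and 23.27 CPM under CC (log2 fold change −0.80). *SAM2* (OS01G0323600), an S-adenosylmethionine synthase downstream of sulfate reduction, had 676.3 and 745.6 CPM under −Fe, against 261.4 and 285.5 CPM under CC (log2 fold change 1.38).

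In *O. rufipogon*, 2 genes are annotated with sulfate transport in the study's table, and they were listed there for their change in these libraries. No pairing with the *O. sativa* genes was used. ORUFI03G06860 had 73.57 and 87.19 CPM under −Fe, against 147.8 and 178.8 CPM under CC, and ORUFI01G32160 had 9.652 and 11.90 CPM under −Fe, against 23.86 and 26.07 CPM under CC. Both genes were lower in the −Fe libraries, by ratios of −Fe to CC means of 0.492 and 0.432. ORUFI03G06860 has 2 transcripts whose shares of the gene differed between the conditions. Transcript ORUFI03G06860.1 took 44.7% and 34.5% of the estimated counts of the gene under −Fe and 80.5% and 69.6% under CC, so that ORUFI03G06860.2 held the larger part under −Fe and the smaller part under CC. The estimated counts were 558.4 and 569.0 under −Fe, against 1775 and 2134 under CC, for ORUFI03G06860.1. For ORUFI03G06860.2 they were 691.6 and 1080 under −Fe, against 430.0 and 931.7 under CC, so that its libraries overlapped. The estimates of both transcripts were not whole in at least −Fe library 1, and the division between them was not tested.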
